A study of Homo sapiens with 12 samples.

Results

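The 40 genes described here act in G2 phase and mitosis. They were taken as a list of gene symbols, not by a cutoff on their measured values. The list was chosen with earlier results of these data known, so no test over it was made. All 40 were present among the 23228 genes of the deposited files. All 40 also passed the filter on low counts, which left 14541 genes for testing.

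The samples were MDA-MB-468 cells, an established human line of triple negative breast cancer, that carry an inducible gene for full-length estrogen receptor beta (ERβ1, ESR2). Every group carried this gene and was kept free of phenol red, in charcoal-stripped serum at 10% for 3 days and then at 5%. The uninduced vehicle group received no doxycycline for 48 hours and then 0.1% DMSO for 4 hours, and the uninduced E2 group received 10 nM of 17β-estradiol (E2) in its place. The induced vehicle and induced E2 groups received 50 ng/mL doxycycline for the 48 hours, followed by the same 4 hours of DMSO or E2. Each group held 3 libraries of total RNA. No group combined doxycycline with cells lacking the ERβ1 gene, so doxycycline and the receptor it switches on cannot be told apart. The labels do not say whether the line was a single clone, nor whether replicates were separate cultures, so p-values here speak only of the spread among these libraries.

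Entry into mitosis is driven by CDK1 bound to cyclin B, which CDC25 phosphatases activate and which Polo and Aurora kinases help to switch on. Chromosomes then attach to the spindle through kinetochores, the spindle checkpoint holds back the anaphase-promoting complex until they are attached, and that complex, with CDC20, UBE2C and UBE2S, marks securin and cyclin B for destruction. Genes of this program are transcribed late in the cell cycle, when FOXM1 and the MYBL2-containing MuvB complex act on promoters that often hold a cell cycle homology region (CHR) near the start and CCAAT boxes upstream, where NF-Y binds. In bulk RNA, fewer cells in G2 and mitosis and less RNA of these genes per cell cannot be told apart.

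The promoters of 5 members that were lower with doxycycline and of 1 that was higher with E2 are printed to show what these elements look like. They were picked, after the values were seen, from called members with a CHR in the 120 bases before the start, and do not stand for the others. The sequences are from RefSeq on GRCh38.p14, read in the direction of the gene, and cover the 120 bases before its start. Capitals mark the CHR, searched as TTTGAA or TTCGAA, and the CCAAT box, searched as CCAAT, each on both strands, so that TTCAAA and ATTGG are the same motifs on the other strand. CCNB2 is at chr15:59105026-59105145 (plus strand), PRC1 at chr15:90994536-90994655 (minus strand), KIF11 at chr10:92593010-92593129 (plus strand), KIF4A at chrX:70289984-70290103 (plus strand), ANLN at chr7:36389742-36389861 (plus strand) and CENPA at chr2:26785936-26786055 (plus strand).
CCNB2: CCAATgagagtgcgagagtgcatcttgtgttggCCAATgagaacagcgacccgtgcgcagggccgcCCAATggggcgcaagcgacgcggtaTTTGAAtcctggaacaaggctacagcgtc
PRC1: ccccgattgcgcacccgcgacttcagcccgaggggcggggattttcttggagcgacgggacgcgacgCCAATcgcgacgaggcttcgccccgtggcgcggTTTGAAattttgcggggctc
KIF11: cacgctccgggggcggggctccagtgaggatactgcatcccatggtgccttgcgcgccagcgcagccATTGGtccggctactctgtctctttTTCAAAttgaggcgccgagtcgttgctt
KIF4A: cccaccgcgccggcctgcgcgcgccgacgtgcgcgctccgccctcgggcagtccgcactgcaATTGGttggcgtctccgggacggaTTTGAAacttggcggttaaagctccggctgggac
ANLN: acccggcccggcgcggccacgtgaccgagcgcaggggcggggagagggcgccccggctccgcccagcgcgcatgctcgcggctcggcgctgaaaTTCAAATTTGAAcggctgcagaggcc
CENPA: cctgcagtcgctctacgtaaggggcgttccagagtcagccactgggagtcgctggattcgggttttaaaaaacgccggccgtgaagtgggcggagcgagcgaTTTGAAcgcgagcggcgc

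The CHR by which these 6 were picked began at base −29 in CCNB2, −20 in PRC1, −28 in KIF11, −34 in KIF4A and −18 in CENPA, and at −26 and −20 in ANLN, where 2 copies on opposite strands abut. CCNB2 held 3 CCAAT boxes in these bases, at −120, −87 and −54, PRC1, KIF11 and KIF4A held 1 each, and ANLN and CENPA held none. Some other called members differed: CCNA2, AURKB, KIF2C, CENPE and UBE2S had neither searched form of the CHR in their windows. Only TTTGAA and TTCGAA were searched, so a CHR of another form would be missed. The CHR of MAD2L1 began after the start, at 24, and those of TOP2A farther upstream, at −194 and −151. RefSeq promoter windows of 300 bases, from 250 before to 50 after the start, were matched for 33 of the 40 members, and AURKA, BUB3, TTK, UBE2C, BIRC5, TPX2 and FOXM1 were not matched. TTTGAA was present in 23 of the 33 (69.7%), against 15.2% of all 35116 windows and 13.9% of the 9874 tested genes with a window. TTCGAA was present in 3 of 33 (9.09%), against 1.45% of windows and 2.27% of those tested genes. CCAAT was present in 27 of 33 (81.8%), against 34.6% of windows and 43.1% of those genes. A CHR of either form and a CCAAT box stood in the same window for 20 of 33 members (60.6%), against 6.38% of windows and 6.46% of those genes. TTCGAA reads the same on both strands, and neither CHR form contains CCAAT. A match is a description of the letters, not of a bound site.

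**Figure D1:**
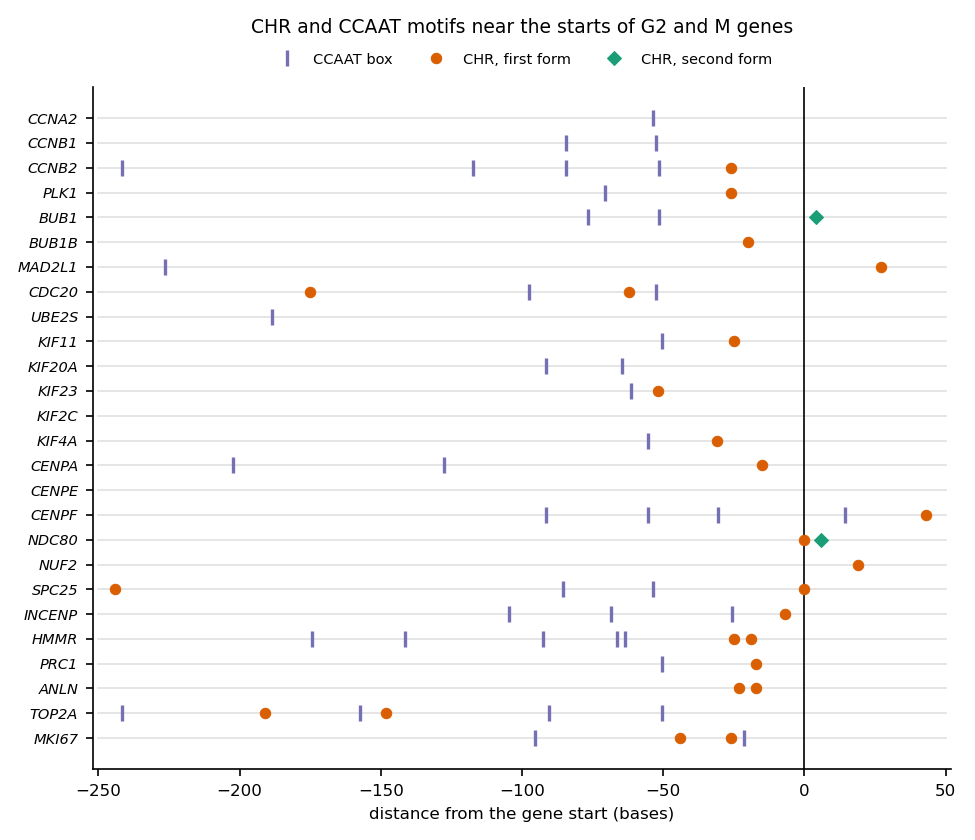
Centres of CCAAT boxes (bars) and of the 2 CHR forms (circles for TTTGAA, diamonds for TTCGAA) on either strand, in bases from the gene start, for the 26 of the 33 matched members that have a single RefSeq window. In CCNB2, PRC1, KIF11, KIF4A, ANLN and CENPA the motif nearest the start is a CHR whose first base lies between −34 and −18.

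The libraries held 7889310 to 33326800 counts, and uninduced vehicle replicate 1 was the shallowest. ESR2 lay at 1.06 to 2.26 CPM (a gene's counts scaled to a common library size) in the 6 uninduced and at 98.0 to 134 CPM in the 6 induced libraries. All 8 genes listed for basal-like breast epithelium passed the filter (summed 7361 to 8455 CPM). That sum is not a measure of basal identity, because EPCAM, CDH1, KRT8 and KRT18 also mark other epithelium. KRT8 lay at 1848 to 3025 CPM and KRT18 at 1024 to 1585 CPM. Of the others KRT5 lay at 573 to 910, KRT14 at 51.9 to 146, KRT17 at 342 to 753 and EGFR at 2168 to 2648 CPM. The luminal hormone receptor list passed with 2 of 3 genes (summed 70.6 to 89.9 CPM). In that list ERBB2 lay at 66.2 to 86.3 CPM, ESR1 at 3.21 to 6.12 CPM and PGR at 0 to 0.155 CPM. Of the fibroblast markers LUM and DCN lay at 0 in all 12 libraries; 3 counts, the limit that a count of 0 allows, are 0.375 CPM in the shallowest library. The fibroblast list passed with 1 of 6 genes (summed 19.5 to 26.6 CPM), the leukocyte list with 1 of 4 (4.65 to 9.05 CPM) and the endothelial list with 1 of 3 (0.735 to 1.63 CPM).

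All 40 members were well expressed in every library. Together they took 0.451% to 0.522% of a library's counts, and the fewest counts of any member in any library were the 100 of CDC25C in uninduced vehicle replicate 1. Per transcript length, as TPM from the authors' fractions, the median member lay at 80.4 TPM in uninduced vehicle cells, against 18.2 TPM for all genes tested. PTTG1, which encodes securin, was the most abundant at 430 ± 21.9 TPM (SD, n = 3), followed by the ubiquitin-conjugating enzymes UBE2S at 259 ± 23.4 and, after CDC20 at 257 ± 12, UBE2C at 200 ± 5.48 TPM. The centriole kinase PLK4 was the least abundant at 12.6 ± 0.336 TPM, next to CDC25C at 13.3 ± 0.98 and the kinetochore motor CENPE at 15.1 ± 0.911 TPM. In this order the replicate ranges of 31 of the 39 neighbouring pairs overlapped, so most neighbours were not separated by their ranges. The ranges ignore that both genes were measured in the same libraries, so overlap does not show that neighbours did not differ. Across all 12 libraries the levels in CPM varied little, with a coefficient of variation from 3.77% for the checkpoint gene BUB3 to 14.1% for the phosphatase gene CDC25B.

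Doxycycline without E2 compares induced with uninduced vehicle cells (n = 3 each), with no ligand added. It covers doxycycline together with the receptor it switches on, which this design does not separate. Of the 40 members, 12 fell, none rose, and every one of the 40 had a fitted change below 0. The called changes ran from −17.6% for UBE2C to −7.70% for TOP2A, so the shift was small and shared. Over all 14541 genes, 4.48% were called lower and 5.54% higher, and 50.6% had a change below 0. The median change of the members was −0.10 log2 and that of all genes −0.00 log2, and 20.3% of all genes lay at or below the members' median. Of the 40, 31 (77.5%) were lower in all 3 same-numbered pairs, against 21.9% of all genes. For 20 of the 40 no induced vehicle library reached the lowest uninduced vehicle one, against 10.1% of all genes, and none showed the opposite, against 10.5%.

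The replicate number is a block in these fits, and the count of called members rested on it. Without the replicate block, 3 members (UBE2C, CCNB2 and AURKB) fell and none rose, against 1.37% of all genes lower and 2.44% higher, while the median change stayed at −0.10 log2 and all 40 changes stayed below 0. The median over members was −0.15 log2 in pair 1, −0.07 in pair 2 and −0.09 in pair 3. Pair 1 contains uninduced vehicle replicate 1, where the members summed to 5145 CPM, the highest of the 12 libraries; without that library 3 members were called lower, 39 of 40 changes were below 0 and the median was −0.08 log2. The count of called members was also 3 without induced vehicle replicate 3, 6 without uninduced vehicle replicate 2, 7 without uninduced vehicle replicate 3, 8 without induced vehicle replicate 1 or 2, and 6, 6 and 1 without the libraries numbered 1, 2 and 3. Across all the libraries or numbers left out, between 37 and 40 changes were below 0, and DESeq2 called 6 members lower. The shares of all genes called in these fits are not given here. A loss of calls in them is thus not known to be particular to the members.

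**Figure D2:**
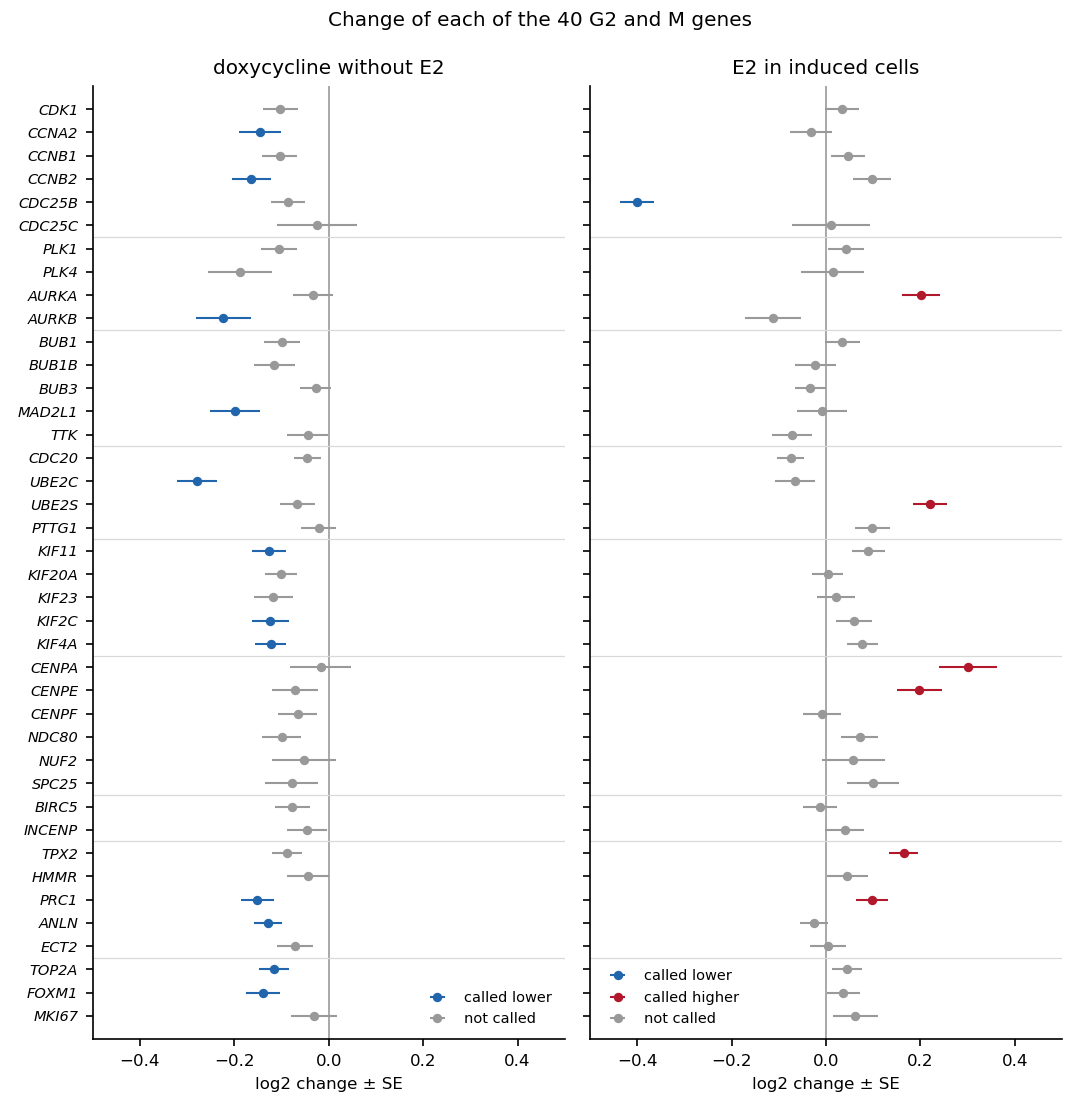
Fitted log2 change ± SE of each of the 40 members for doxycycline without E2 (left) and for E2 in induced cells (right), grouped by role; blue marks called lower, red called higher and grey not called, at an adjusted p under 0.05. On the left all 40 points lie below 0 and 12 are called lower, and on the right 6 are called higher and CDC25B is called lower. Both panels use the induced vehicle libraries.

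Among the cyclins and regulators of CDK1, 2 of 6 fell. CCNB2, one of the B-type cyclins that activate CDK1, lay at 69.1, 62.6 and 66.5 CPM in uninduced vehicle and 57.5, 59.4 and 58.0 CPM in induced vehicle replicates 1, 2 and 3, and at 64.6, 65.1 and 63.1 CPM in uninduced E2 and 62.8, 62.5 and 62.5 CPM in induced E2. Every induced vehicle library was below every other library, and the decrease was −0.16 log2 (SE 0.04, adjusted p = 0.0144 by edgeR; 0.0315 without the block). CCNA2, the cyclin of S phase and early mitosis, fell by 0.15 log2 (SE 0.05, adjusted p = 0.0477; 0.134 without the block), which left it just past the threshold. CDK1 itself had a change of −0.10 log2 and CCNB1 of −0.10 log2 (adjusted p = 0.0918 for both), and their groups overlapped.

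Of the 4 mitotic kinases 1 fell. AURKB, the kinase of the chromosomal passenger complex, lay at 32.6, 29.5 and 30.7 CPM in uninduced vehicle, 27.4, 26.7 and 24.4 CPM in the induced vehicle group, 28.2, 28.3 and 29.7 CPM in uninduced E2 and 23.2, 25.0 and 24.2 CPM in induced E2 libraries. All 6 induced libraries were below all 6 uninduced ones, and the decrease without E2 was −0.22 log2 (SE 0.06, adjusted p = 0.0167; 0.047 without the block). It missed the threshold without induced vehicle replicate 3, without uninduced vehicle replicate 1 or 3, without the libraries numbered 3 and in DESeq2, with adjusted p up to 0.262. The Polo kinases PLK1 and PLK4 had changes of −0.11 and −0.19 log2 (adjusted p = 0.0993 and 0.0886) with groups that did not overlap, whereas AURKA, the spindle pole kinase, had −0.03 log2 and overlapping groups.

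The spindle checkpoint had 1 called member of 5. MAD2L1, whose product inhibits CDC20 at unattached kinetochores, lay at 48.0, 39.9 and 39.7 CPM in uninduced vehicle, 39.2, 35.0 and 35.7 CPM in the induced vehicle group, 43.0, 39.2 and 42.1 CPM in uninduced E2 and 37.9, 37.2 and 33.7 CPM in induced E2 libraries. The vehicle groups were separated only narrowly, by the gap between 39.2 and 39.7 CPM, and the decrease was −0.20 log2 (SE 0.05, adjusted p = 0.0205; 0.197 without the block). The checkpoint kinases BUB1 and BUB1B had changes of −0.10 and −0.12 log2 with groups that did not overlap but did not pass (adjusted p = 0.112 and 0.113), and BUB3 and TTK had −0.03 and −0.04 log2.

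Among the partners of the anaphase-promoting complex, UBE2C alone fell, and it held its call in all 24 other settings tried. UBE2C supplies the first ubiquitins that the complex places on its substrates. It lay at 70.7, 68.9 and 67.9 CPM in uninduced vehicle, 58.9, 58.1 and 53.7 CPM in the induced vehicle group, 69.8, 65.3 and 68.0 CPM in uninduced E2 and 53.7, 54.7 and 54.6 CPM in induced E2 libraries. The 6 induced libraries were all below the 6 uninduced ones, by at least the gap between 58.9 and 65.3 CPM. Doxycycline without E2 lowered it by −0.28 log2 (SE 0.04, adjusted p = 0.000122; 0.00159 without the block), and the change lay between −0.31 and −0.24 log2 across those settings. Its partners had changes of −0.05 (CDC20), −0.07 (UBE2S) and −0.02 log2 (PTTG1), none of which passed.

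All 5 mitotic kinesins were lower in all 3 pairs, and 3 were called. KIF11, the motor that pushes the spindle poles apart, fell by 0.13 log2 (SE 0.04, adjusted p = 0.0289), and KIF4A, a chromosome-arm motor that also acts at the midzone, fell by 0.12 log2 (SE 0.03, adjusted p = 0.0229). KIF2C, a microtubule depolymerase at centromeres, fell by 0.12 log2 (SE 0.04, adjusted p = 0.0499), but its vehicle groups overlapped. None of these 3 calls held without the block (adjusted p = 0.11, 0.226 and 0.445). KIF20A, the most abundant kinesin of the list per length, lay at 179, 169 and 170.2 CPM in uninduced vehicle, 157, 164 and 159 CPM in the induced vehicle group, 172, 173 and 172 CPM in uninduced E2 and 163, 156 and 164 CPM in induced E2 libraries. Its induced libraries were all below its uninduced ones, but the vehicle difference of −0.10 log2 (SE 0.03) missed the threshold at an adjusted p = 0.0624.

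None of the 6 centromere and kinetochore genes passed. NDC80, the microtubule-binding subunit that gives its complex its name and the most abundant of these genes per length, lay at 147, 127 and 135 CPM in uninduced vehicle, 123, 124 and 131 CPM in the induced vehicle group, 136, 127 and 136 CPM in uninduced E2 and 129, 133 and 135 CPM in induced E2 libraries. Its groups overlapped, with a change of −0.10 log2 (SE 0.04, adjusted p = 0.145). The centromeric histone CENPA had −0.02 log2 and its pairs went both ways (−0.14, 0.16 and −0.15 log2). The chromosomal passengers BIRC5 (survivin) and INCENP had −0.08 and −0.05 log2 and did not pass. BIRC5 lay at 134, 140.3 and 136 CPM in uninduced vehicle, 125, 129 and 135 CPM in the induced vehicle group, 132, 138 and 143 CPM in uninduced E2 and 132, 125 and 129.6 CPM in induced E2 libraries.

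Of the 5 genes for spindle assembly and cytokinesis 2 fell. PRC1, which bundles microtubules at the spindle midzone, lay at 129.5, 116 and 119.7 CPM in uninduced vehicle, 109, 107 and 110.0 CPM in the induced vehicle group, 122, 115 and 121 CPM in uninduced E2 and 118, 113 and 119 CPM in induced E2 libraries. The induced vehicle group was below all other libraries, by −0.15 log2 against uninduced vehicle (SE 0.03, adjusted p = 0.00671; 0.0718 without the block). ANLN, the scaffold of the cleavage furrow, lay at 356, 329.9 and 334 CPM in uninduced vehicle, 324, 305 and 303 CPM in the induced vehicle group, 341, 317 and 342 CPM in uninduced E2 and 313, 303 and 300 CPM in induced E2 libraries. Its vehicle groups did not overlap and the decrease was −0.13 log2 (SE 0.03, adjusted p = 0.0071; 0.134 without the block). ECT2, which acts in cytokinesis, and the spindle protein HMMR had −0.07 and −0.04 log2 with overlapping groups.

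TOP2A, the topoisomerase that untangles sister chromatids, lay at 382, 349 and 358 CPM in uninduced vehicle, 346, 322 and 335 CPM in the induced vehicle group, 368, 332 and 349.6 CPM in uninduced E2 and 339, 341 and 352 CPM in induced E2 libraries. The vehicle groups did not overlap, and the decrease was −0.12 log2 (SE 0.03, adjusted p = 0.021; 0.215 without the block). FOXM1, itself a transcription factor of this program, lay at 120.2, 114 and 109.8 CPM in uninduced vehicle, 103, 104 and 103 CPM in the induced vehicle group, 116, 108 and 111 CPM in uninduced E2 and 109, 106 and 104 CPM in induced E2 libraries. It was lower in all 3 induced vehicle libraries than in any uninduced one, by −0.14 log2 (SE 0.04, adjusted p = 0.0146; 0.084 without the block). MKI67, the usual marker of cycling cells, did not pass, at −0.03 log2 (SE 0.05, adjusted p = 0.789), and its pair 1 was above 0.

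**Figure D3:**
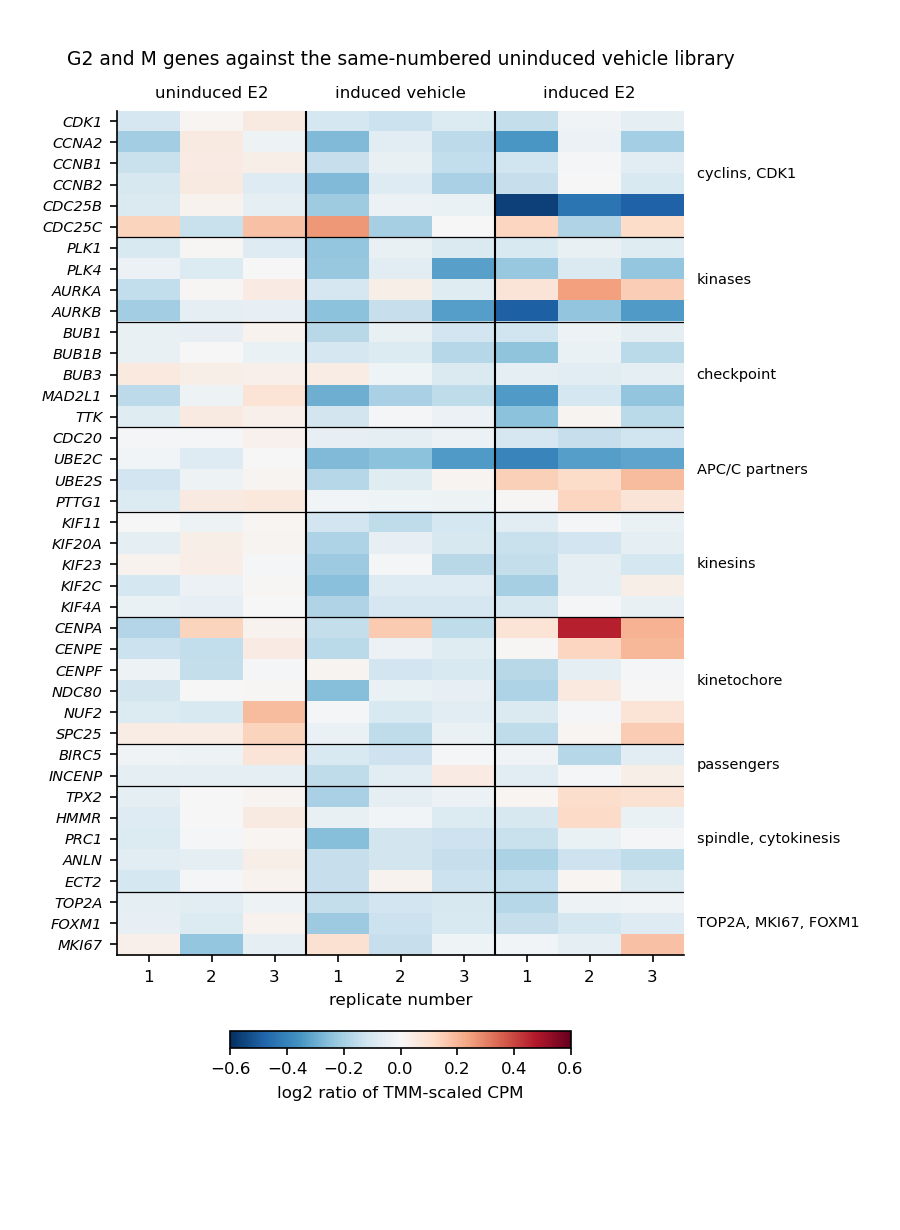
Log2 ratio of CPM in each uninduced E2, induced vehicle and induced E2 library to the uninduced vehicle library of the same number, for the 40 members by role; blue is lower and red higher. In the induced vehicle columns 36, 37 and 37 of the 40 ratios are below 0, and the 9 columns share their 3 uninduced vehicle libraries.

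E2 in induced cells shows what 4 hours of ligand did once the receptor was present, by comparing induced E2 with induced vehicle libraries (n = 3 each). Of the 40 members 6 rose (UBE2S, TPX2, AURKA, CENPA, CENPE and PRC1), 1 fell (CDC25B) and 33 did not pass. Over all genes 13.5% were called higher and 10.3% lower, so the 6 of 40 that rose stood near the background share and the 1 of 40 that fell stood below it. Groups did not overlap for 8 members higher and 1 lower, against 16.6% and 13.9% of all genes. Without the replicate block 4 rose and 1 fell, against 9.85% and 6.61% of all genes. The median member changed by 0.04 log2 and the median gene by −0.01 log2. CDC25B, at −0.40 log2 (SE 0.04), had a larger fitted change than any member had with doxycycline alone. CENPA, at 0.30 log2 (SE 0.06), was close in size to UBE2C with doxycycline alone (−0.28 log2). These differences in size were not tested. These libraries include the induced vehicle group of the previous comparison, so a low value there counts in both.

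CDC25B, a phosphatase that starts the activation of CDK1 at the centrosome, had the largest change of the 40. It lay at 152, 150 and 149.9 CPM in induced vehicle and at 119.7, 114 and 110.2 CPM in induced E2 replicates 1, 2 and 3. In uninduced vehicle it lay at 176, 154 and 154 CPM and in uninduced E2 at 166, 156 and 149 CPM. All 3 induced E2 libraries were below all 9 others, and E2 lowered it by −0.40 log2, or 24.2% (SE 0.04, adjusted p = 3.74e-08; 0.000127 without the block). Its relative CDC25C, at 12.9 CPM in both induced groups, had a change of 0.01 log2 (95% interval −0.16 to 0.19).

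UBE2S, which extends the ubiquitin chains begun by UBE2C, lay at 131, 127 and 126 CPM in the induced vehicle group, 163, 144 and 142 CPM in induced E2, 147, 133 and 125 CPM in uninduced vehicle and 136, 131 and 126 CPM in uninduced E2 libraries. The induced E2 libraries were above the induced vehicle ones, by 0.22 log2 (SE 0.04, adjusted p = 9.48e-05; 0.0186 without the block), while the highest uninduced vehicle library exceeded 2 of them. UBE2S overlaps the ribosomal protein gene RPL28, and the strand setting of the counting is not stated; RPL28 lay at 472 to 520.4 CPM and its change with E2 in induced cells was 0.00 log2 (SE 0.03). UBE2C, its partner enzyme, had −0.07 log2 (adjusted p = 0.309).

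AURKA and TPX2, a kinase and the spindle protein that binds and activates it, both rose. AURKA lay at 93.6, 84.1 and 81.7 CPM in the induced vehicle group, 106, 97.2 and 95.2 CPM in induced E2, 100.3, 82.0 and 85.8 CPM in uninduced vehicle and 90.4, 82.4 and 88.8 CPM in uninduced E2 libraries. The induced groups did not overlap, with an increase of 0.20 log2 (SE 0.04, adjusted p = 0.000881), which missed the threshold without the block (0.0678). TPX2 lay at 190.3, 188 and 194 CPM in the induced vehicle group, 219.8, 211 and 212 CPM in induced E2, 218, 196 and 199 CPM in uninduced vehicle and 209, 196 and 202 CPM in uninduced E2 libraries. Its increase was 0.16 log2 (SE 0.03, adjusted p = 0.000493; 0.0128 without the block), again with no overlap between the induced groups.

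Both called kinetochore genes rose with E2. CENPA, the histone that marks the centromere, lay at 30.6, 29.5 and 28.6 CPM in the induced vehicle group, 35.9, 36.6 and 36.7 CPM in induced E2, 33.8, 26.5 and 31.7 CPM in uninduced vehicle and 29.9, 29.1 and 32.2 CPM in uninduced E2 libraries. The induced E2 libraries were above all 9 others and close to each other, with an increase of 0.30 log2, or 23.1% (SE 0.06, adjusted p = 0.000922; 0.00973 without the block). CENPE, the kinesin that carries chromosomes to the spindle equator, lay at 57.7, 58.1 and 55.5 CPM in the induced vehicle group, 64.9, 65.1 and 67.1 CPM in induced E2, 64.6, 59.5 and 58.4 CPM in uninduced vehicle and 59.0, 53.7 and 60.4 CPM in uninduced E2 libraries. It was likewise highest in the induced E2 group, by 0.20 log2 over induced vehicle (SE 0.05, adjusted p = 0.00338; 0.0127 without the block), and it missed the threshold without the libraries numbered 3 (adjusted p = 0.0742). The other 4 kinetochore genes, CENPF, NDC80, NUF2 and SPC25, had changes of −0.01 to 0.10 log2 and did not pass.

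PRC1 rose by 0.10 log2 (SE 0.03, adjusted p = 0.044), from the low induced vehicle level given above. That call was lost in 19 of 24 other settings, among them the fit without the block (adjusted p = 0.154). It was the only member called in both comparisons, and the groups share the induced vehicle libraries. None of the 5 checkpoint genes, of the 5 genes listed as kinesin motors (CENPE is listed with the kinetochore) or of the 2 chromosomal passengers passed with E2. BUB3, a checkpoint adaptor, lay at 135, 125 and 123 CPM in the induced vehicle group, 126, 122 and 125 CPM in induced E2, 131, 127 and 130.3 CPM in uninduced vehicle and 137, 130.2 and 133 CPM in uninduced E2 libraries. Its change of −0.03 log2 (adjusted p = 0.531) lay within overlapping groups.

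**Figure D4:**
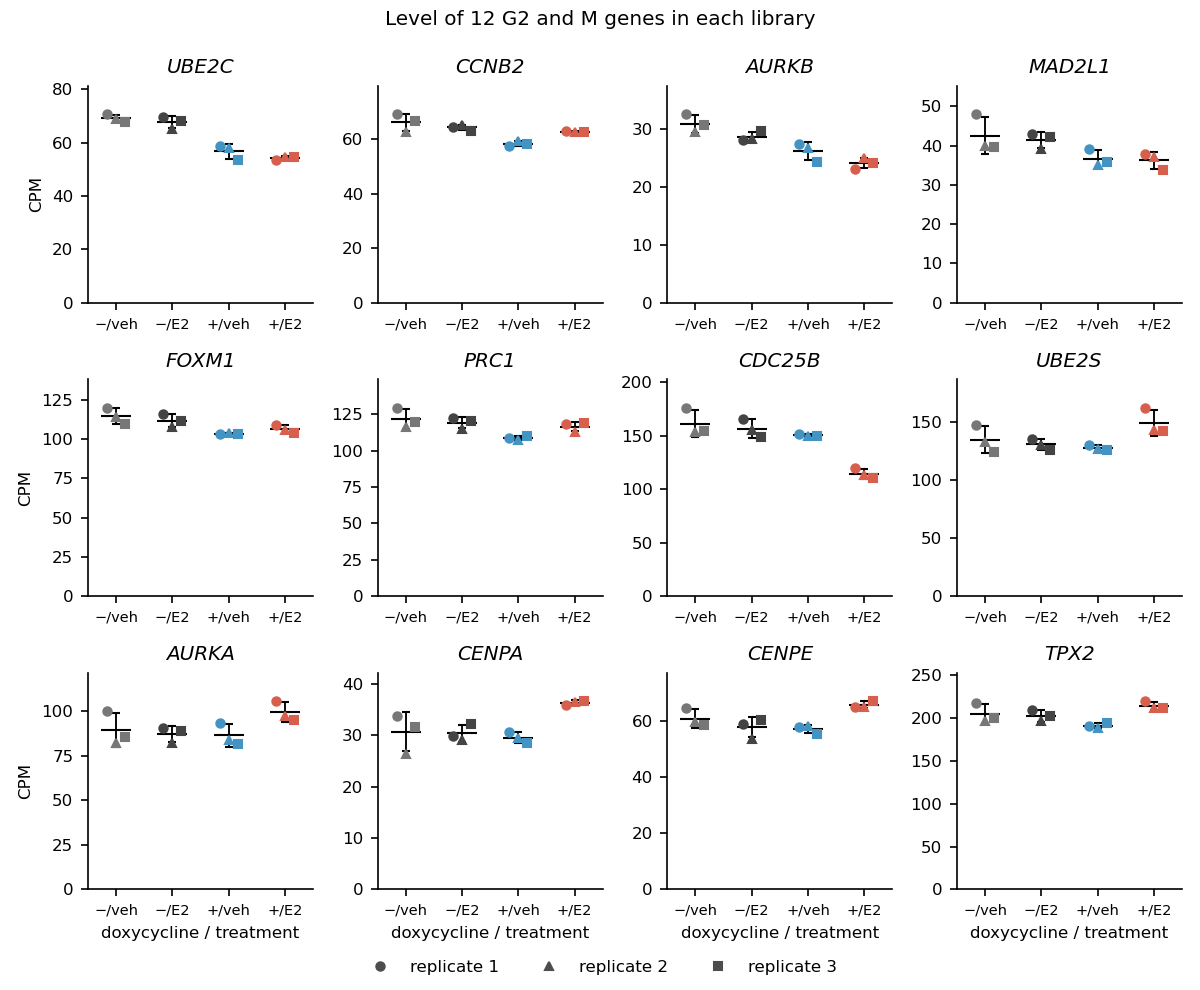
CPM of 12 members in each library (circle, triangle and square for replicates 1, 2 and 3), with the mean and SD of each group of 3; − and + mark doxycycline, veh is 0.1% DMSO. UBE2C and AURKB are lower in both doxycycline groups, CDC25B is lowest in induced E2, and CENPA is highest there.

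E2 in uninduced cells gives the size of any E2 response without the induced receptor. No member was called, and neither was any of the 14541 genes (0% in each direction, by edgeR with and without the block and by DESeq2). No member had an unadjusted p under 0.05. The members' changes ran from −0.09 log2 for MKI67 to 0.08 log2 for SPC25, with a median of −0.02 log2 (all genes −0.00) and 30 of 40 below 0. The 95% intervals of all 40 lay between −0.204 (AURKB) and 0.199 log2 (CDC25C), which bounds, gene by gene, what this design could have missed. These intervals are from the fit with the replicate block, and none were made without it. CENPF was the only member whose groups did not overlap (lower), against 2.80% of all genes, and no member was higher without overlap, against 3.64%. In the 3 uninduced E2 libraries, 34, 24 and 12 of the 40 members were below the same-numbered uninduced vehicle library, so the pairs did not share a direction.

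Doxycycline with E2 compares induced E2 with uninduced E2 libraries (n = 3 each), both 4 hours into ligand. Of the 40 members 13 fell and 5 rose, against 18.2% and 19.1% of all genes. The median was −0.04 log2 (all genes −0.01) and 31 of 40 changes were below 0 (52.5% of all genes). The 5 that rose were AURKA, UBE2S, CENPA, CENPE and TPX2, by 0.19, 0.19, 0.26, 0.19 and 0.08 log2, all of which had also risen with E2 in induced cells and share the induced E2 libraries with that comparison. CDC25B fell the most, by 0.45 log2 (SE 0.04, adjusted p = 2.50e-09), followed by UBE2C at −0.31 log2 (SE 0.04, adjusted p = 3.76e-06) and AURKB at −0.25 log2 (SE 0.06, adjusted p = 0.00146).

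The checkpoint genes made up 4 of the 13, with MAD2L1 at −0.19, TTK at −0.13, BUB1B at −0.11 and BUB3 at −0.10 log2. TTK encodes MPS1, the kinase that starts checkpoint signaling. CDC20, the activator that the checkpoint restrains, lay at 198, 192 and 187 CPM in uninduced E2, 186, 176 and 169.6 CPM in induced E2, 199.8, 194 and 184 CPM in uninduced vehicle and 193, 187 and 179.6 CPM in induced vehicle libraries. Replicate 1 was the highest library of each of the 4 groups, the E2 groups did not overlap, and the decrease with E2 present was −0.12 log2 (SE 0.03, adjusted p = 0.00189; 0.0616 without the block). The others that fell were ANLN (−0.13), CCNA2 (−0.13), KIF23 (−0.12), KIF20A (−0.10) and BIRC5 (−0.10 log2). None of these 13 had overlapping groups; counting members not called, groups did not overlap for 14 lower and 6 higher, against 20.5% and 20.9% of all genes.

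Without the replicate block 6 members fell (CDC25B, UBE2C, AURKB, ANLN, KIF20A and KIF23) and 3 rose (UBE2S, CENPA and CENPE), against 13% and 15% of all genes. The count of 13 lower was 5 without uninduced E2 replicate 3, 8 without induced E2 replicate 1, 7 without induced E2 replicate 3 and 3 without the libraries numbered 3, and the count of 5 higher was 3 without those numbered 2. CDC25B, AURKB, UBE2C, UBE2S and CENPA were called in every one of these fits at an adjusted p under 0.05. For the fits with libraries left out the shares of all genes are not given, so lost calls are not known to be particular to the members.

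Set side by side, the doxycycline comparisons named partly different members. CCNA2, AURKB, MAD2L1, UBE2C and ANLN fell in both. CCNB2, TOP2A, KIF11, KIF2C, KIF4A, PRC1 and FOXM1 were called without E2 alone, and CDC20, CDC25B, BUB1B, BUB3, TTK, KIF20A, KIF23 and BIRC5 with E2 alone. CCNB2, for example, was −0.16 log2 without E2 and −0.04 log2 with it, and KIF11 −0.13 and −0.03 log2. Of these 15 only CDC25B differed between the conditions in the test of the difference itself, which is the interaction below.

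The interaction tests whether the E2 change differed between induced and uninduced cells, and equally whether the doxycycline change differed with and without E2. It was above 0 for UBE2S (0.26 log2, SE 0.05, adjusted p = 0.00131), CENPE (0.27, SE 0.07, adjusted p = 0.00855), TPX2 (0.17, SE 0.04, adjusted p = 0.0106), AURKA (0.22, SE 0.06, adjusted p = 0.0126) and CENPA (0.28, SE 0.09, adjusted p = 0.0374). It was below 0 for CDC25B (−0.37, SE 0.05, adjusted p = 2.10e-05). These 5 and 1 of 40 compare with 8.86% and 5.88% of all genes called higher and lower. All 6 kept their sign in all 3 numbers. The median member was at 0.05 log2 (all genes −0.01), and 32 of 40 were above 0. Without the replicate block CENPE and CDC25B alone passed (adjusted p = 0.0309 and 0.00829), against 5.66% of all genes higher and 2.81% lower. Without the libraries numbered 2, those numbered 3 or induced vehicle replicate 3 the number of members higher was 2, 2 and 3. The shares of all genes in those fits are not given, so the loss is not known to be particular to the members.

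Of the 40 members 15 were called in none of these comparisons: CDK1, CCNB1, CDC25C, PLK1, PLK4, BUB1, CENPF, NDC80, NUF2, SPC25, INCENP, HMMR, ECT2, MKI67 and PTTG1. They include the kinase and cyclin that define entry into mitosis, and MKI67. CCNB1 lay at 146 ± 8.26 CPM in uninduced vehicle, 144 ± 4.60 in uninduced E2, 135 ± 4.52 in induced vehicle and 139 ± 2.64 CPM in induced E2 cells (SD, n = 3), and PTTG1 had its lowest mean in the induced vehicle group (126 ± 6.30 CPM) and its highest in the induced E2 group (134 ± 0.896 CPM).

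**Figure D5:**
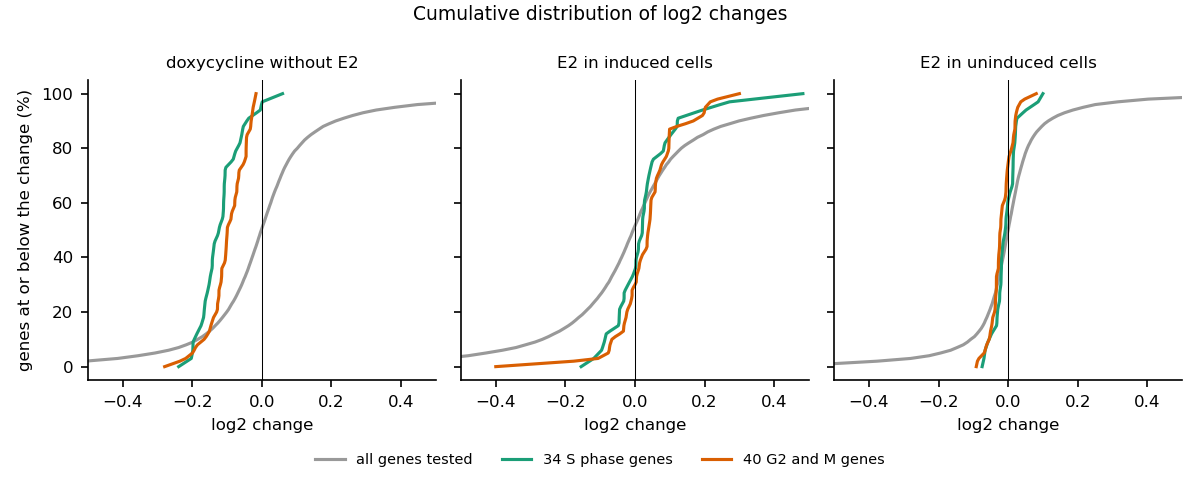
Cumulative percent of genes at or below each log2 change, for the 40 members (orange), 34 S phase genes (green) and all genes tested (grey), in 3 comparisons; the axis is limited to the middle of the range of all genes. With doxycycline without E2 the orange curve reaches 100 percent before 0, with a median of −0.10 log2, and with E2 in uninduced cells its median is −0.02 log2.

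With doxycycline without E2 other cell cycle genes were also mostly below 0, and most of their calls, like those of the members, were lost without the replicate block. The shares of all genes called lower are 4.48% and, without the block, 1.37%. Of 30 further spindle and cytokinesis genes all 30 had a change below 0 without E2 and 5 fell (1 without the block). They include the kinesin KIF15 (−0.26 log2, SE 0.06, adjusted p = 0.00564; 0.0163 without the block), and the kinesin KIFC1 (−0.15 log2) and the kinase MELK (−0.18 log2), whose calls were lost without the block (adjusted p = 0.0748 and 0.154). Of 31 further kinetochore genes 23 were below 0 and 3 fell (CENPN, SKA3 and CENPI; 0 without the block), and of 20 condensin and cohesin genes 15 were below 0 and 3 fell (NCAPG2, CDCA5 and NCAPH; 1 without the block, NCAPG2). Of 14 subunits and regulators of the anaphase-promoting complex 9 were above 0, the median was 0.01 log2 and ANAPC1 alone fell, by 0.15 log2 (0 without the block). Of 34 S phase genes, which act before G2, 32 were below 0 with a median of −0.12 log2 and 14 fell (2 without the block). Among the 14 were the helicase subunit MCM4 (−0.15 log2; adjusted p = 0.0451 without the block) and 3 genes whose calls were lost without it, the helicase subunit MCM7 (−0.14 log2; 0.196), the clamp loader RFC3 (−0.24 log2; 0.0613) and the polymerase subunit POLD1 (−0.19 log2; 0.0603). The median of the members thus lay near that of the S phase genes, and the difference between the lists was not tested.

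With E2 in induced cells few genes of these lists passed, beside 13.5% of all genes higher and 10.3% lower. Of the 30 spindle genes 3 rose and none fell, with 22 above 0 and a median of 0.05 log2. Of the 31 kinetochore genes 1 rose and none fell, of the 20 condensin and cohesin genes 2 rose and 3 fell, and of the 14 anaphase-promoting complex genes none passed. KIF18A, a kinesin that dampens chromosome oscillation, rose by 0.37 log2 (SE 0.04, adjusted p = 1.61e-06), and the condensin subunit NCAPH by 0.31 log2 (SE 0.05, adjusted p = 4.37e-05). The cohesin subunit RAD21 fell by 0.16 log2 (SE 0.03, adjusted p = 0.000279), and ESPL1, the separase that cleaves it, by 0.14 log2 (adjusted p = 0.0384), a call lost in 13 of 24 other settings (0.183 without the block). Of the 34 S phase genes 3 rose and 1 fell, and their median change was 0.02 log2. CDC6, which licenses replication origins, rose the most of them, by 0.48 log2 (SE 0.05, adjusted p = 2.14e-07).

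Of 27 regulators of G2 and M genes 2 rose and 5 fell with doxycycline without E2 (1 and 3 without the block). The shares of all genes there were 5.54% higher and 4.48% lower (2.44% and 1.37% without the block). With E2 in induced cells 4 of the 27 rose and 6 fell (3 and 6 without the block). The shares of all genes were 13.5% and 10.3% (9.85% and 6.61% without the block), so the 4 that rose stood near the background share. CDKN1A and NFYB had the smallest p in both comparisons. CDKN1A, which encodes the CDK inhibitor p21, lay at 50.2, 50.6 and 57.4 CPM in uninduced vehicle, 59.5, 64.6 and 68.9 CPM in the induced vehicle group, 47.0, 55.0 and 53.4 CPM in uninduced E2 and 110.5, 127 and 128 CPM in induced E2 libraries. It rose by 0.30 log2 with doxycycline alone (SE 0.05, adjusted p = 0.000178; 0.0692 without the block) and by a further 0.92 log2 with E2 in induced cells (SE 0.04, adjusted p = 1.23e-12). NFYB, a subunit of the CCAAT-binding factor NF-Y, lay at 75.3, 67.2 and 69.7 CPM in uninduced vehicle, 55.3, 54.7 and 58.1 CPM in the induced vehicle group, 68.5, 68.1 and 72.9 CPM in uninduced E2 and 36.5, 39.2 and 38.6 CPM in induced E2 libraries. It fell by 0.32 log2 with doxycycline alone (SE 0.05, adjusted p = 6.23e-05) and by 0.55 log2 with E2 in induced cells (SE 0.05, adjusted p = 2.42e-08). MYBL2, the B-MYB subunit that joins the MuvB complex, fell by 0.18 log2 with doxycycline without E2 (SE 0.03, adjusted p = 0.00119), as did the activator E2F2 (−0.25 log2, SE 0.04, adjusted p = 0.000737). RB1, which is deleted in this cell line, lay at 0.631 to 1.5 CPM. Whether these regulators bear on the members was not tested.

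By the CHR motif the members' changes were as follows, with the difference not tested. For doxycycline without E2 the 25 members with TTTGAA or TTCGAA had a median of −0.10 log2 and 7 called lower. The 8 with neither of these forms had a median of −0.10 log2 and 3 called lower. For E2 in induced cells the medians were 0.04 and 0.05 log2. CENPA, whose promoter is printed above, rose with E2, and CDC25B, which holds the TTCGAA form in 1 of its 4 windows, fell.

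The replicate number moved with the members in all groups. Averaged over the 4 groups, 35 of 40 were higher in the libraries numbered 1 than in those numbered 2 and 3, by a median of 0.06 log2, against 49.5% of all genes and a median of −0.00 log2. For 12 members number 1 was highest in all 4 groups, among them CDC20, CDC25B, AURKA and UBE2S. PLK4 went the other way, by −0.10 log2. The number is also tied to dates and lanes in the names of the deposited files, with number 1 on the earlier date, so these cannot be told apart.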

How the data were processed

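RNA of 12 libraries in 4 groups of 3 was analysed. The deposited files hold 1 estimated count per gene and library and the authors' fraction of transcripts; per the submitters' processing notes RSEM 1.1.16, DESeq 1.7.10 and the hg19 build were used. The read aligner and the strand setting of the counting are not given in the sources used here. The deposited estimated counts were rounded to whole numbers, and the fractions deposited by the authors were multiplied to TPM.

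Genes were filtered with edgeR 4.0.16 in R 4.3.3 (filterByExpr, minimum count 10, minimum total 15), scaled by TMM and tested by its quasi-likelihood test with group and replicate number as terms (6 residual degrees of freedom). P-values were Benjamini-Hochberg adjusted over 14541 genes, with calls made at adjusted values under 0.05. Every adjusted p printed is of this test, unless its sentence names another setting, such as the fit without the block. SE is the size of the log2 change divided by the root of its F value. CPM values use the TMM-scaled library sizes; totals of 7889310 to 33326800 counts give at least 100 counts to every member in every library. The edgeR steps were tested on simulated data.

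The replicate number, given alike in every group by the labels, entered as a block. Deviations from group means correlated at 0.104 to 0.464 in the 18 same-numbered pairs (median 0.246) and at −0.427 to 0.278 in the 36 others (median −0.220) over 12376 genes. Deviations within a group sum to 0, which ties these ranges together, so their contrast is partly built in. Among libraries of other groups, 8 of the 12 correlated best with one of their own number. The pairing comes from the titles' numbers; file names tie each number to a lane and number 1 to an earlier date.

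The 40 members and the other gene lists were chosen with earlier results of these data known. Values in every library are given for called members, at most 8 per comparison taken by smallest p, and for the most abundant member of a role without one; of each other list up to 4 called genes with the smallest p are named. Alternatives were no block, RLE or upper quartile scaling, testing without the filter or with a stricter one (CPM of 1 in 3 libraries), DESeq2 1.42.0, limma-voom (limma 3.58.1), the compared groups alone, an adjusted p under 0.01, and each library or number left out.

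Counts are less certain where genes overlap or have near copies. Among such members are FOXM1 (ITFG2, RHNO1), CCNA2 (EXOSC9), KIF20A (CDC23), PRC1 (PRC1-AS1), UBE2S (RPL28), KIF4A (KIF4B) and PTTG1 (PTTG2). CDC25C (FAM53C), PLK1 (ERN2), SPC25 (NOSTRIN) and BUB1B (BUB1B-PAK6) also overlap other genes, and the list is not complete.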

Additional observations from a re-analysis of the deposited data

Results flagged for a closer look

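By edgeR's interaction test, adjusted over all genes, the E2 change differed between induced and uninduced cells for the 18 named genes below, at most 4 from each list other than the members. All 18 had the same sign in all 3 replicate numbers. Among the members all 6 called are given: CDC25B (−0.37 log2, adjusted p = 2.1e-05; −0.40 in induced and −0.03 in uninduced cells), UBE2S (0.26 log2, adjusted p = 0.00131; 0.22 in induced and −0.04 in uninduced cells), CENPE (0.27 log2, adjusted p = 0.00855; 0.20 in induced and −0.07 in uninduced cells), TPX2 (0.17 log2, adjusted p = 0.0106; 0.16 in induced and −0.01 in uninduced cells), AURKA (0.22 log2, adjusted p = 0.0126; 0.20 in induced and −0.02 in uninduced cells) and CENPA (0.28 log2, adjusted p = 0.0374; 0.30 in induced and 0.02 in uninduced cells).

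Of the 27 regulators 3 were called higher and 5 lower, against 8.86% and 5.88% of all genes. Of these 8 the 4 with the smallest p were CDKN1A (0.93 log2, adjusted p = 1.38e-09; 0.92 in induced and −0.01 in uninduced cells), NFYB (−0.55 log2, adjusted p = 3.07e-06; −0.55 in induced and 0.00 in uninduced cells), E2F5 (−0.61 log2, adjusted p = 0.000592; −0.56 in induced and 0.05 in uninduced cells) and E2F2 (0.24 log2, adjusted p = 0.00991; 0.17 in induced and −0.07 in uninduced cells). Among the S phase genes they were CDC6 (0.38 log2, adjusted p = 0.00055; 0.48 in induced and 0.10 in uninduced cells), GINS4 (0.29 log2, adjusted p = 0.00775; 0.27 in induced and −0.02 in uninduced cells) and FEN1 (0.17 log2, adjusted p = 0.0255; 0.19 in induced and 0.02 in uninduced cells). Among the spindle, condensin, cohesin and anaphase-promoting complex genes they were KIF18A (0.42 log2, adjusted p = 5.48e-05; 0.37 in induced and −0.05 in uninduced cells), DEPDC1 (0.20 log2, adjusted p = 0.0346; 0.14 in induced and −0.06 in uninduced cells), NCAPH (0.30 log2, adjusted p = 0.00297; 0.31 in induced and 0.00 in uninduced cells), RAD21 (−0.17 log2, adjusted p = 0.00744; −0.16 in induced and 0.01 in uninduced cells) and ANAPC2 (0.21 log2, adjusted p = 0.0357; 0.10 in induced and −0.11 in uninduced cells). Without the replicate block 9 of the 18 passed: CDKN1A, NFYB, CDC25B, CDC6, E2F5, NCAPH, GINS4, CENPE, E2F2. Groups of 3 are too small for a test of single outlying samples, and none was made.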

How the results depend on the processing

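Among the single genes checked, no change reversed in direction past a threshold under any setting. Of their 3148 values 2640 kept their side of the threshold, 505 lost it and 3 gained it. The genes checked were the members called with or without the block and the other genes named, with the members of smallest p where none was called. Other members were not checked one by one, so calls gained among them are not in this count. Without the replicate block the members called lower with doxycycline without E2 were 3, those called higher and lower with doxycycline with E2 were 3 and 6, and the interaction called 1 higher. DESeq2 with the block called 6 lower with doxycycline without E2. At an adjusted p under 0.01, 3 were lower with doxycycline without E2, 6 were lower with doxycycline with E2 and 2 were higher in the interaction. With upper quartile scaling the members' median was 0.0134 log2 for E2 in induced cells (2 lower, as with the stricter filter), −0.0842 for doxycycline with E2 and 0.0215 for the interaction, while the median of all genes moved to −0.03, −0.05 and −0.04 log2.

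With a library or number left out, doxycycline without E2 called 1 to 12 lower. E2 in induced cells called 4 to 9 higher and 1 to 2 lower. Doxycycline with E2 called 3 to 6 higher and 3 to 13 lower. The interaction called 2 to 7 higher, with a median of 0.0247 to 0.0775 log2. Where this left an arm with fewer libraries, the spread was pooled over all groups. Calls held under every setting at 0.05 for 4 of 7 members with E2 in induced cells, 1 of 12 with doxycycline without E2, 5 of 18 with doxycycline with E2 and 1 of 6 in the interaction. The counts for left-out libraries or numbers, for DESeq2 and for an adjusted p under 0.01 stand without the shares of all genes. Whether calls were lost more among the members than among other genes there was not tested. The cause of these shifts was not tested.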
